A study of Eonycteris spelaea and Mus musculus with 51 samples.

Results

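Metallothioneins are followed here in blood, lung and muscle of heat-shocked mice and cave nectar bats. The members were 3 rows of 70857 in the deposited count tables: Mt1 and Mt2 in the mouse table of 40840 rows, and ENSG00000125148 in the bat table of 30017 rows. They were chosen by name, with earlier results of these data known. ENSG00000125148 is the human Ensembl identifier of MT2A, the human counterpart of mouse Mt2, and the bat annotation gives no other name for this row. Whether it collects the reads of 1 bat metallothionein gene or of several is not known from the files. The study exposed living bats (Eonycteris spelaea) and mice (Mus musculus) to heat and compared how they responded. The control group is the untreated baseline. The heat group was sampled as soon as a heat shock of 1 h ended, and the recovery group 4 h after the end of such a shock. There were 27 bat and 24 mouse libraries (51 in all) in 18 groups, each with 3 libraries except the mouse blood groups, which had 2. Strain, age, sex, any genotype and the temperature are not given in the sources used here, and neither is whether 1 animal gave all 3 tissues. Nothing says outright that the libraries of a group came from separate animals, so p-values measure the spread between these libraries.

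Metallothioneins are very small proteins in which a large share of the residues are cysteines, whose sulphur atoms hold zinc and copper ions. Cells make them in response to zinc, cadmium and copper through the metal-responsive transcription factor MTF1, and the genes are also known to respond to glucocorticoid hormones, to interleukin-6 acting through STAT3, and to oxidative stress. Mt1 and Mt2 are made in most mouse tissues, Mt3 is best known from the brain and Mt4 from stratified epithelium.

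The coding sequences of the mouse pair are shown because they explain both what the proteins are and how well reads of the pair can be told apart. They come from the GENCODE M21 transcripts on the GRCm38 build, are written 5′ to 3′, and have each in-frame cysteine codon (TGT or TGC) in capitals.
Mt1: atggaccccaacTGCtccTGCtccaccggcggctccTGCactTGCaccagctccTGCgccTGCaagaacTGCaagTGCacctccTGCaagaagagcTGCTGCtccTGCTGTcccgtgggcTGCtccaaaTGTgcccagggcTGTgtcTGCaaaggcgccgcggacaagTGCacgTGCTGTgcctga
Mt2: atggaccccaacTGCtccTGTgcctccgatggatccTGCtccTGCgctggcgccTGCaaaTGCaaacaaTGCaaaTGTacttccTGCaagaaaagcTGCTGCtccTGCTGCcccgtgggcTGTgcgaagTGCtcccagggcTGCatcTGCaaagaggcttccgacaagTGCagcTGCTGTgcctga
Each sequence has 186 bases and 61 codons before the stop, of which 20 (32.8%) encode cysteine. All 20 cysteine codons sit at the same codon position in both genes. The 2 sequences were identical at 148 of 186 bases (79.6%), and the longest run shared letter for letter by the whole transcripts was 20 bases. Both genes have 3 exons and lie on the plus strand of chromosome 8. Their order there is Mt4, Mt3, Mt2, Mt1, with 13575, 18517 and 5513 bases between neighbouring genes on GRCm38. The submitters' processing notes name GRCm39 for the reads, so no positions are given.

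Bat libraries held 9.29 to 33.3 M counted reads each, and mouse libraries 17.1 to 54.5 M. Levels below are CPM, a gene's reads per M reads of the library, scaled with edgeR's TMM factors within a species and tissue unless stated. Mouse tissue labels were checked against marker genes: lung epithelium markers summed to at least 14828 CPM in every lung library and to at most 4.75 CPM in every blood or muscle library, erythroid markers to at least 283743 CPM in blood, and skeletal muscle markers to at least 171242 CPM in muscle. Skeletal muscle markers also summed to 603 to 3557 CPM in lung. In the bat the same check was not made, because the files do not pair its identifiers with names. The third bat lung control stood apart, with a total of 9.29 M reads against 16.1 to 21.7 M in the other bat lung libraries and a mean correlation with its own group of 0.889 against 0.920 or more. Log2 differences of the bat row from control, between tissues and between species that use it are given with and without it. The mean control level of lung, the shares of genes called and the correlations between genes include it.

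Before heat, Mt1 in the mouse was highest in muscle and lung, which did not differ beyond their spread, and lowest in blood. Scaled over all mouse libraries, control Mt1 was at 4.26 ± 0.94 CPM in muscle (SD, n = 3), 3.23 ± 0.39 CPM in lung (n = 3) and 0.52 ± 0.32 CPM in blood (n = 2). Muscle was 7.92-fold above blood (log2 difference 2.99, adjusted p = 0.00940), and blood was below lung by a log2 difference of −2.59 (adjusted p = 0.0231), both from the quasi-likelihood test of edgeR, with p adjusted over all genes by Benjamini and Hochberg's method. These are 2 calls among contrasts in which 67% (muscle against blood) and 60.7% (lung against blood) of all genes tested were called, so most genes differed from blood. The difference of blood from lung was lost without blood control 1 (adjusted p = 0.142) or 3 (0.0540), and that of muscle from blood without blood control 1 (0.0860). Muscle minus lung was 0.40 for Mt1 (adjusted p = 0.626), in a contrast that called 56% of genes.

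Mt2 was at 2.10 ± 0.99 CPM in control lung and 1.86 ± 0.71 CPM in control muscle, which did not differ beyond their spread (log2 difference −0.17, adjusted p = 0.794). Neither control blood library had a Mt2 read. Against the limit that 3 counts over the group allow, 0.0677 CPM, control lung was at least 30.9-fold and control muscle at least 27.5-fold higher. Blood held few reads of either gene under any condition. Mt1 had 6 and 18 reads in the control blood libraries, 0 and 93 after heat, and 0 and 0 after recovery, while Mt2 had at most 3 reads in any of the 6. Mt2 failed the filter on low counts there, and for Mt1 edgeR found no call in either comparison with control (adjusted p = 0.697 for heat and 0.635 for recovery), where 0% of 15869 genes were called. The responses of the pair in blood are therefore given as counts only, and the tissue differences from blood above rest on these few reads.

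In mouse muscle, Mt1 rose right after heat and stayed up at 4 h, while Mt2 gained most between the end of heat and 4 h. Mt1 was at 3.00, 4.41 and 3.17 CPM in the control libraries, at 36.8, 20.8 and 18.8 CPM after heat, and at 22.6, 37.8 and 37.6 CPM after recovery. Every heat and every recovery library was above every control library. Heat and recovery overlapped each other. The increase over control was 7.20-fold after heat (log2 2.85, SE 0.33, adjusted p = 0.0270) and 9.24-fold after recovery (log2 3.21, SE 0.33, adjusted p = 0.0154), and recovery minus heat was 0.36 (SE 0.30, adjusted p = 0.483). These values rest on 93 to 158 Mt1 reads per control library and 560 to 1261 per heat or recovery library.

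Mt2 in the same muscle libraries was at 0.91, 2.04 and 1.67 CPM in control, 4.44, 3.49 and 3.76 CPM after heat, and 16.8, 34.9 and 51.6 CPM after recovery. The 3 groups did not overlap. Mean levels were 1.54 ± 0.58, 3.90 ± 0.49 and 34.4 ± 17.4 CPM (SD, n = 3 each), so most of the gain came between the end of heat and 4 h. The difference right after heat, 2.53-fold (log2 1.34, SE 0.42), did not pass the threshold in edgeR (adjusted p = 0.111) and did in DESeq2 (log2 1.38, adjusted p = 0.0180). After recovery Mt2 was 22.3-fold above control (log2 4.48, SE 0.46, adjusted p = 0.0154) and 8.82-fold above heat (log2 3.14, SE 0.43, adjusted p = 0.0371). The control level rests on 29 to 73 reads per library and the recovery level on 570 to 1730.

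Few genes of muscle passed the same edgeR tests, but how many did depended on the fit. Right after heat the genes called were 2362 in DESeq2, 1130 with only the 2 groups compared and 228 with no filter on low counts. After recovery they were 101, 0 and 17, and between recovery and heat 1161, 11 and 156. The shares below are those of the main edgeR fit. Right after heat 1 of the 2 genes (Mt1) was called, against 0.428% of 17746 genes (76 genes), or 0.293% counting only genes that rose. After recovery both were called, against 0.0676% (12 genes, all of which rose), and between recovery and heat 1 of 2 (Mt2) was called, against 0.468% (83 genes), or 0.282% that rose. Among all genes tested after recovery, ordered from the highest log2 change, Mt2 was number 9 and Mt1 number 15. The pair was chosen with earlier results of these data known, so these shares and ranks are a description. Heat and recovery were both compared with the same 3 control libraries. The tissue is bulk, so more cells of a type and more RNA per cell cannot be told apart.

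**Figure D1:**
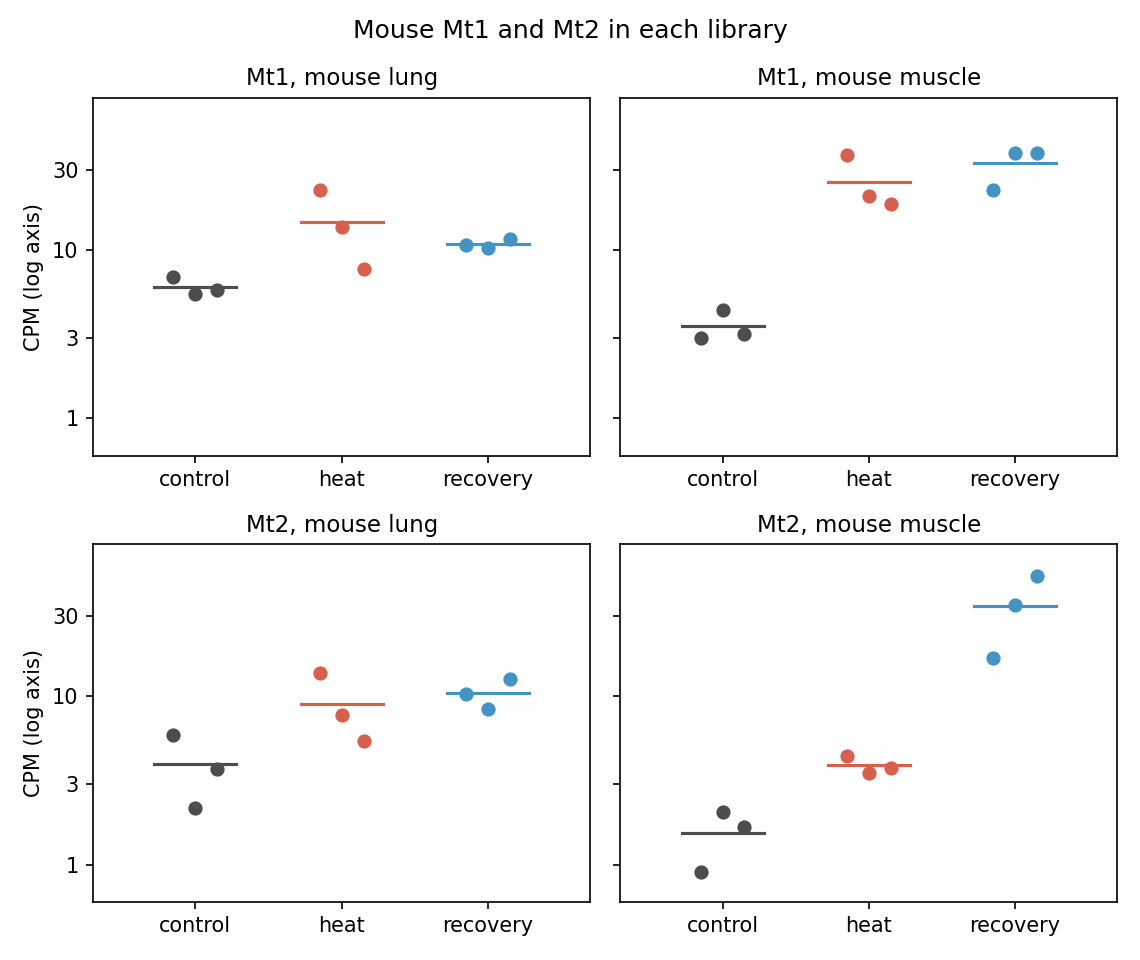
Level of Mt1 (top) and Mt2 (bottom) in mouse lung (left) and muscle (right), in CPM on a log axis, with 1 point per library and a line at the group mean. In muscle all recovery libraries lie above all control libraries for both genes, and Mt2 climbs from a mean of 3.90 CPM after heat to 34.4 CPM after recovery.

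The muscle calls depended on single libraries, while the log2 sizes moved by less than 1. The Mt1 increase after heat lost its call without control 1 (adjusted p = 0.151), control 2 (0.135) or heat 1 (0.0987), while its log2 size stayed between 2.49 and 3.04. The recovery increases lost their calls without control 1 (Mt1 0.153, Mt2 0.150), control 2 (0.124 for both), control 3 (0.156 and 0.158) or recovery 2 (0.0565 for both), with log2 sizes of 3.08 to 3.41 for Mt1 and 4.07 to 4.81 for Mt2. Mt2 in recovery against heat was called in 1 of the 9 fits that left out a library (adjusted p 0.0189 to 0.163, log2 2.73 to 3.47): it lost its call without control 1 (0.0616), control 2 (0.0692), control 3 (0.0549), heat 1 (0.163), heat 2 (0.0666), heat 3 (0.115), recovery 2 (0.0827) or recovery 3 (0.0718). Mt2 right after heat gained a call without recovery 1 (0.0278). In fits of only the 2 groups compared, the adjusted p was 0.0567 for Mt1 and 0.129 for Mt2 in recovery against control, and 0.0895 for Mt2 in recovery against heat.

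In muscle, the summed levels of markers of several other cell types lay apart between control and heat, while control and recovery overlapped. EdgeR called 0 of the 5 leukocyte, 5 adipocyte, 4 hepatocyte, 5 fibroblast and 7 skeletal muscle markers tested, in any muscle comparison. Leukocyte markers summed to 106 to 403 CPM in control, 27.8 to 63.0 CPM after heat and 63.5 to 577 CPM after recovery, adipocyte markers to 216 to 860, 40.7 to 208 and 180 to 611 CPM, and hepatocyte markers to 94.3 to 147, 8.42 to 67.3 and 61.1 to 307 CPM. These lists hold 7, 5 and 4 markers, with none at 0 throughout a condition. All 3 sums were lower in every heat library than in every control library, as was that of 5 fibroblast markers (1570 to 3428 CPM in control, 1058 to 1414 CPM after heat), while Mt1 was higher in every heat library. Skeletal muscle markers summed to 171242 to 289971 CPM in control, 292690 to 325307 CPM after heat and 174978 to 306857 CPM after recovery. The skeletal muscle sum was thus also higher in every heat library than in every control library, by a narrow margin. The part of cell makeup in the Mt1 and Mt2 changes was not tested.

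The balance within the pair differed between the conditions in muscle, with no overlap of libraries. The ratio of Mt1 to Mt2 reads in a library needs no scaling for depth. It was 3.31, 2.16 and 1.90 in control muscle, 8.29, 5.96 and 5 right after heat, and 1.35, 1.08 and 0.729 after recovery. Mt1 reads outnumbered Mt2 reads most after heat, and in 1 recovery library Mt2 reads were the more frequent. On the log2 scale the means were 1.26 ± 0.42, 2.65 ± 0.37 and 0.03 ± 0.45 (SD, n = 3 each). The differences were 1.39 for heat minus control, −1.23 for recovery minus control and −2.62 for recovery minus heat, each with p = 0.1 in an exact two-sided permutation test, the smallest p that 3 against 3 can give. Per kilobase of transcript, the scale on which the 2 genes can be compared with each other, the level in the recovery libraries was 41.2, 68.8 and 68.5 CPM per kb for Mt1 and 32.9, 68.3 and 100.9 CPM per kb for Mt2.

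In lung the ratios right after heat lay among those of control. Its log2 values were 0.23, 1.33 and 0.64 in control, 0.73, 0.82 and 0.50 after heat, and 0.06, 0.29 and −0.12 after recovery. Heat and control overlapped (difference −0.05, exact permutation p = 0.9). Recovery libraries all lay below heat libraries (difference −0.61, exact permutation p = 0.1) and overlapped control (difference −0.65, exact permutation p = 0.2).

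**Figure D2:**
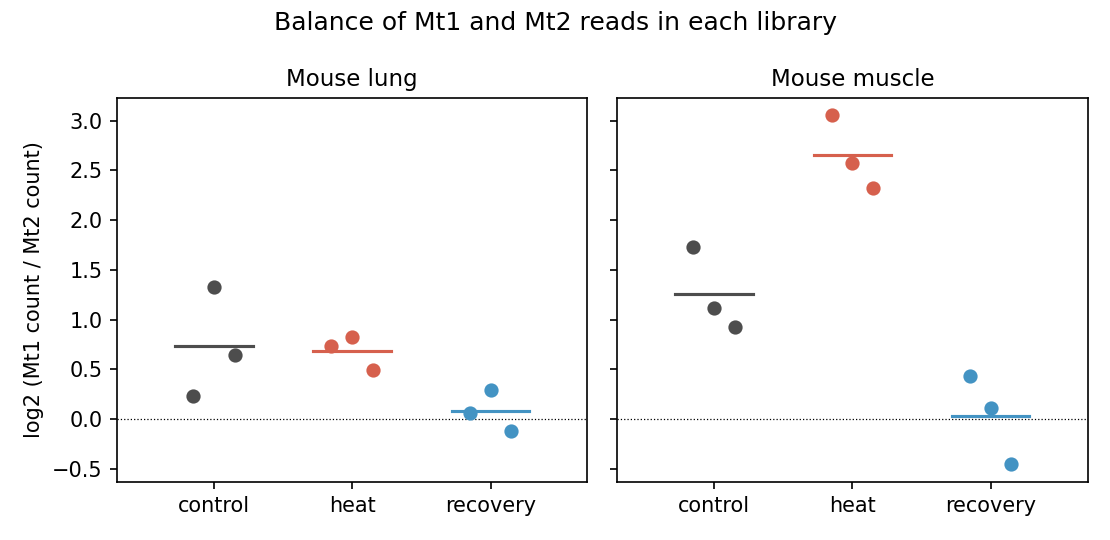
Log2 of the Mt1 count over the Mt2 count in each mouse library of lung (left) and muscle (right), with 1 point per library, a line at the group mean, and a dotted line where the counts are equal. In muscle the heat libraries lie between 2.32 and 3.05, above all others, and the recovery libraries lie lowest, between −0.46 and 0.43.

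In mouse lung, Mt1 rose right after heat, and neither gene passed the test at 4 h. Mt1 was at 6.91, 5.48 and 5.79 CPM in control, 22.8, 13.7 and 7.69 CPM after heat, and 10.7, 10.3 and 11.7 CPM after recovery. All heat and recovery libraries were above all control libraries, and the heat libraries spread widely, from 7.69 to 22.8 CPM. The heat difference was 2.45-fold (log2 1.29, SE 0.31, adjusted p = 0.0427), and that of recovery was 0.85 on the log2 scale (SE 0.32, adjusted p = 0.597).

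Mt2 in lung was at 5.90, 2.18 and 3.72 CPM in control, 13.7, 7.78 and 5.45 CPM after heat, and 10.3, 8.45 and 12.7 CPM after recovery. Heat overlapped control, with a log2 difference of 1.20 (SE 0.39, adjusted p = 0.102). All recovery libraries were above all control libraries, with a log2 difference of 1.41 (SE 0.39) that did not pass the threshold in edgeR (adjusted p = 0.452) and did in DESeq2 (log2 1.41, adjusted p = 0.0195). DESeq2 also called Mt2 right after heat (log2 1.21, adjusted p = 0.0141). In lung DESeq2 called 2156 genes right after heat and 117 after recovery, against 1138 and 6 in edgeR.

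Calls were common in lung after heat and rare after recovery. Right after heat 1 of the 2 genes (Mt1) was called, beside 5.85% of 19438 genes, or 3.14% counting only genes that rose. After recovery edgeR called 0 of 2, beside 0.0309%, with an unadjusted p under 0.05 for both genes, and in recovery against heat 0 of 2, beside 11.3%, with an unadjusted p under 0.05 for neither. The Mt1 heat call was lost without heat 1 (log2 0.83, adjusted p = 0.0784), control 1 (0.111), control 2 (0.119), control 3 (0.159), recovery 1 (0.0733), recovery 2 (0.0760) or recovery 3 (0.0713), with no filter on low counts (0.101) and in a fit of only the 2 groups (0.110), and Mt1 in recovery against heat was called without heat 3 (log2 −0.75, adjusted p = 0.0240). Neutrophil markers summed to 41.2 to 60.6 CPM in control lung, 55.8 to 159 CPM after heat and 27.1 to 43.5 CPM after recovery, and lung epithelium markers to 15305 to 16014, 16090 to 17191 and 14828 to 17184 CPM. The part of these cells in the Mt1 difference was not tested.

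The fitted log2 changes were larger in muscle than in lung for both genes, but the difference between tissues did not pass the test across all genes. In a fit of all mouse libraries, the log2 change in muscle minus that in lung was 1.58 for Mt1 (SE 0.89, adjusted p = 0.357) and 0.15 for Mt2 (adjusted p = 0.943) right after heat. After recovery it was 2.36 for Mt1 (SE 0.89, unadjusted p = 0.0175, adjusted p = 1.00) and 3.08 for Mt2 (SE 0.67, unadjusted p = 0.000239, adjusted p = 0.225). EdgeR called 0 of 2 at both times, beside 0.0443% and 0.0398% of 22592 genes. Without the first muscle recovery library the Mt2 difference after recovery was called (log2 3.42, adjusted p = 0.00424).

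In the bat, ENSG00000125148 did not pass the test of heat or recovery against control in any tissue, and in muscle all heat libraries lay below all control libraries. In muscle it was at 56.1, 37.6 and 26.0 CPM in control, 18.2, 11.2 and 18.1 CPM after heat, and 23.95, 17.6 and 57.6 CPM after recovery. The recovery libraries overlapped both other groups. The heat level was 2.52-fold lower than control (log2 −1.33, SE 0.45, unadjusted p = 0.0152, adjusted p = 0.181), a difference that DESeq2 called (log2 −1.36, adjusted p = 0.0244). In that comparison DESeq2 called 778 genes, against 6 in edgeR. Recovery minus control was −0.27 (adjusted p = 0.749), and recovery minus heat was 1.06 (adjusted p = 0.458).

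In bat lung the row was at 75.4, 57.5 and 420 CPM in control, 44.3, 66.1 and 57.6 CPM after heat, and 85.8, 50.9 and 63.0 CPM after recovery. The value of 420 CPM belongs to the shallow control library described above, and apart from it the conditions overlapped. Heat minus control was −1.71 (SE 0.65, unadjusted p = 0.0248, adjusted p = 0.572) with that library and −0.25 without it. Recovery minus control was −1.47 (SE 0.64, adjusted p = 0.300) with it and 0.00 without it.

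In bat blood the row was at 74.0, 11.1 and 22.7 CPM in control, 22.4, 24.8 and 13.3 CPM after heat, and 42.7, 9.45 and 18.1 CPM after recovery. The conditions overlapped, and control alone spread from 11.1 to 74.0 CPM. Heat minus control was −0.83 (adjusted p = 1.00) and recovery minus control −0.62 (adjusted p = 0.918). Without the first control library these were 0.26 and 0.47.

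The share of all bat genes called was also small in most of these comparisons. Heat against control called 0% of genes in blood, 0% in lung and 0.0376% in muscle, recovery against control 0%, 0.047% and 2.67%, and recovery against heat 0%, 0.125% and 0.00627%. Blood held 113 to 1626 reads of the row per library. Scaled over all bat libraries, control levels were 107 ± 112 CPM in lung, 67.1 ± 24.7 CPM in muscle and 34.3 ± 32.5 CPM in blood (SD, n = 3 each), where the lung mean includes lung control 3. Blood was below lung (log2 −1.64, adjusted p = 0.0401, in a contrast that called 57.6% of genes). That call was lost without lung control 3 (−0.30, adjusted p = 0.714), blood control 2 (−1.20, 0.159), blood control 3 (−1.39, 0.130) or muscle control 2 (−1.60, 0.0512). Muscle differed from neither at the threshold: muscle minus lung was −0.67 (adjusted p = 0.391, or 0.67 with adjusted p = 0.399 without lung control 3), and muscle minus blood was 0.96 (adjusted p = 0.205, or 2.08 with adjusted p = 0.0154 without blood control 1). Those contrasts called 55.9% and 64.5% of genes. EdgeR called 0 of the 6 differences in heat or recovery response between bat tissues (adjusted p 0.855 to 1.00), with 0 at an unadjusted p under 0.05. The 4 differences that involve lung changed sign without lung control 3: muscle minus lung went from 0.24 to −1.10 for heat and from 1.06 to −0.29 for recovery, and blood minus lung from 0.78 to −0.56 and from 0.75 to −0.60. None was called either way. Those contrasts called 0% of genes for heat, and for recovery 0.559% (muscle against lung), 0.0147% (blood against lung) and 0.319% (muscle against blood).

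**Figure D3:**
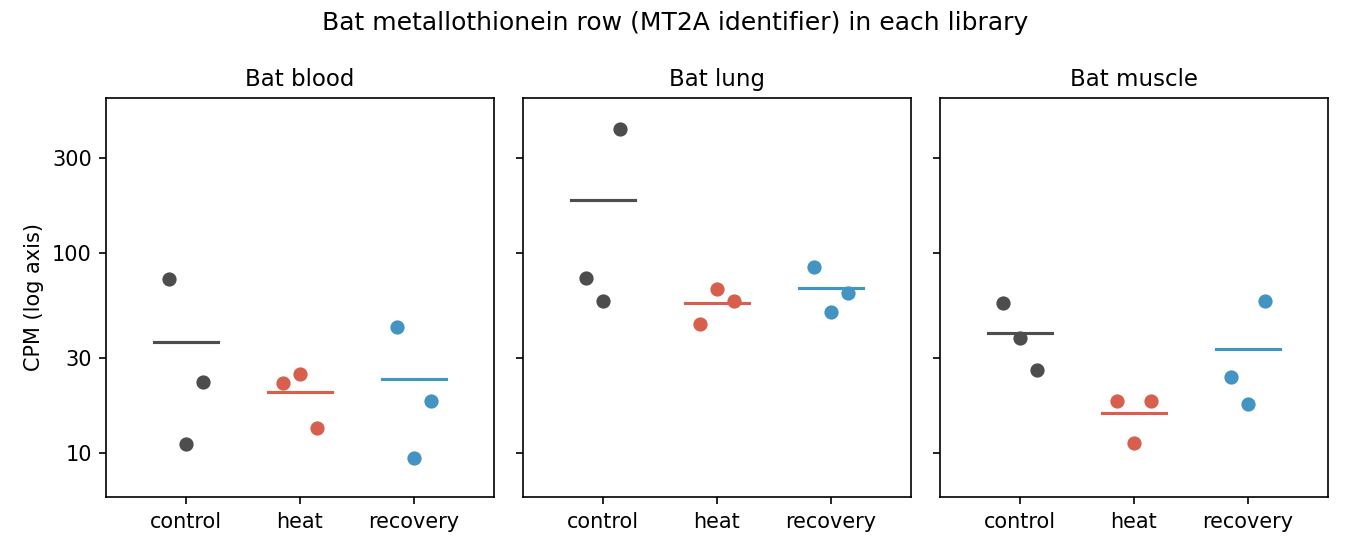
Level of ENSG00000125148 in each bat library of blood, lung and muscle, in CPM on a log axis, with 1 point per library and a line at the group mean. Conditions overlap in blood, 1 control library at 420 CPM stands above all others in lung, and the heat libraries of muscle (11.2 to 18.2 CPM) lie below its controls.

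The difference in response between the species was tested directly for Mt2 and ENSG00000125148, as the bat change minus the mouse change in a joint fit per tissue. In muscle it was −2.67 right after heat (SE 0.70, adjusted p = 0.0262) and −4.75 after recovery (SE 0.71, adjusted p = 0.000177). In lung it was −2.91 right after heat (SE 0.83, adjusted p = 0.0403) and −2.88 after recovery (SE 0.83, adjusted p = 0.144). Each value is negative, which means a higher log2 change in the mouse than in the bat. The bat row stands for Mt2 here by its identifier alone, and may hold reads of other bat metallothionein genes. The fits held only the rows that could be paired by identifier and passed the filter, 46 in muscle and 77 in lung, of which 8.7%, 2.17%, 9.09% and 0% were called in these 4 comparisons, in the order given. These shares include the pair itself, which was the only row called in muscle after recovery.

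The muscle difference after recovery was called in all 18 fits that left out 1 library (−5.43 to −4.34). The muscle difference right after heat was called in 14 of 18 (−2.93 to −2.34): it was lost without bat heat 2 (adjusted p = 0.0579), bat heat 3 (0.0561), mouse control 1 (0.0919) or mouse control 2 (0.0505). The lung difference right after heat was −1.44 without bat control 3 (adjusted p = 0.108) and was called in 6 of 18 such fits. It was also lost without bat heat 1 (0.0637), 2 (0.0540) or 3 (0.0969), mouse control 1 (0.0773), 2 (0.0786) or 3 (0.0843), mouse heat 1 (0.103) or 3 (0.0936), or mouse recovery 1 (0.0609), 2 (0.0565) or 3 (0.0598). The lung difference after recovery was −1.41 without bat control 3 and was called without bat control 1 (−3.25, 0.0141) or 2 (−3.28, 0.00928). The 2 tables hold different annotations, and levels are not compared between them.

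**Figure D4:**
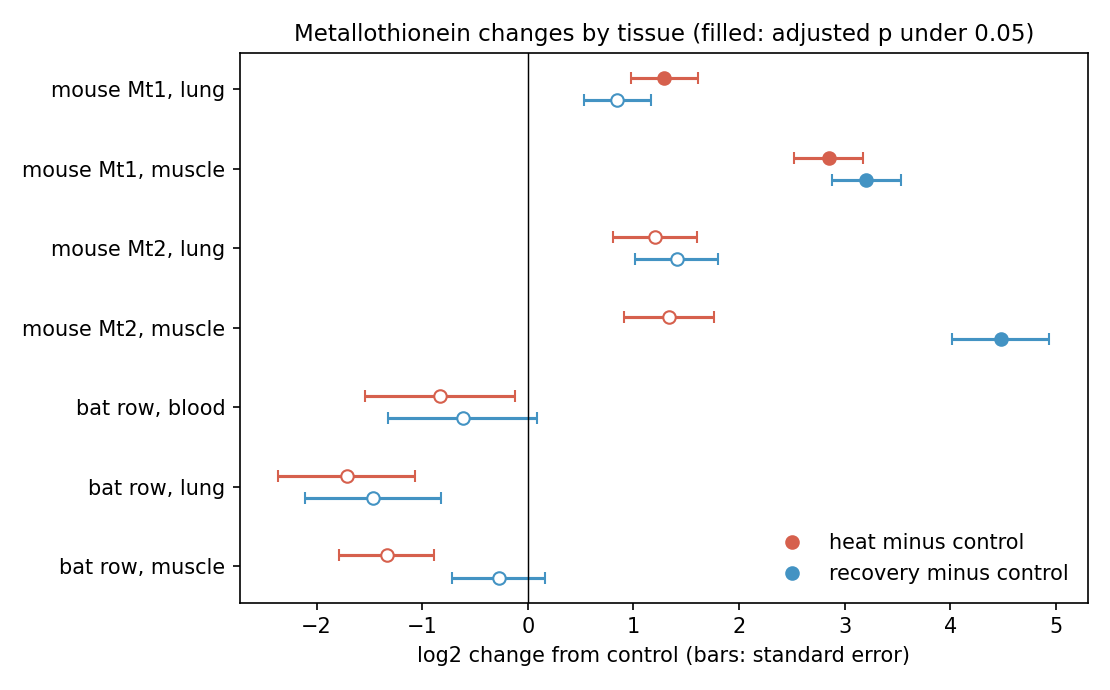
Log2 change from control right after heat and after recovery, for Mt1 and Mt2 in mouse lung and muscle and for the bat row in blood, lung and muscle; bars are standard errors and filled points passed an adjusted p of 0.05. Both Mt1 values of mouse muscle and its Mt2 value after recovery lie farthest to the right, up to 4.48 for Mt2. Mt2 in muscle right after heat (1.34) lies among the mouse lung values. In these fits of all libraries the bat values lie left of 0.

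The other family members had few reads. Mt3 had 9 to 38 reads per muscle library and 0 to 4 per lung library, and passed the filter only in muscle, where its log2 differences from control were 0.53 right after heat and 0.62 after recovery, neither of them called. Mt4 passed in no tissue: it had 33 reads in 1 control lung library and 0 or 1 in the other lung and muscle libraries.

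No gene of the zinc lists passed the edgeR test with all libraries in muscle in heat or recovery against control. Mtf1, the transcription factor through which metals turn on metallothionein genes, was at 28.9 ± 4.99 CPM in control muscle, 36.9 ± 2.43 CPM after heat and 29.9 ± 5.37 CPM after recovery (SD, n = 3 each; log2 0.35 and 0.05, adjusted p = 0.183 and 0.999). Slc30a1, which exports zinc across the plasma membrane and is itself a known MTF1 target, was at 14.6 ± 1.23, 11.9 ± 0.51 and 16.0 ± 1.04 CPM (log2 −0.30 and 0.13, adjusted p = 0.136 and 0.999). The zinc importers Slc39a10 and Slc39a14 had log2 differences of 0.12 and 0.31 after heat and 0.24 and 0.17 after recovery, with none called.

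As lists, 0 of 7 zinc exporters, 0 of 13 zinc importers and 0 of 8 copper handling genes tested were called in muscle after heat or after recovery by edgeR, and 0 by DESeq2. At an unadjusted p under 0.05 there were 4, 1 and 0 of them after heat and 0, 0 and 0 after recovery. The share of all genes under that cut is not given, here or for the lists below, so such counts are a description. Right after heat in muscle many genes lay under it in edgeR: Cebpb, at an unadjusted p of 0.0499, had an adjusted p of 0.167. The median log2 differences of exporters, importers and copper handling genes were −0.06, −0.06 and 0.01 after heat and 0.06, −0.02 and 0.03 after recovery, beside −0.05 and 0.00 over all genes tested. The count of exporters called after heat was 2 without recovery 1.

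In lung 1 of 9 copper handling genes was called right after heat, a share near that of all genes there (5.85%). It was Atp7b, a copper-transporting ATPase, at 96.9 CPM in control and 131 CPM after heat (log2 0.43, adjusted p = 0.0458), and the count was 0 in a fit of only the 2 groups and without any 1 control library, heat 1, recovery 1 or recovery 2. EdgeR called 0 of 7 exporters and 0 of 14 importers right after heat (2 and 2 at an unadjusted p under 0.05, 0 and 1 in DESeq2). Mtf1 was at 36.9 ± 2.91 CPM in control lung, 47.7 ± 7.80 CPM after heat and 33.6 ± 2.21 CPM after recovery, and its heat difference from control of 0.37 had an adjusted p of 0.0823. That difference was called in DESeq2 and without heat 2. Between heat and recovery, where 11.3% of all lung genes were called, Mtf1 was lower by −0.50 on the log2 scale (adjusted p = 0.0207), a call lost without heat 1 or any 1 recovery library.

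In the same comparison 1 of 7 exporters and 3 of 14 importers were called. Slc30a1 was at 71.2 CPM after heat and 86.6 CPM after recovery (log2 0.28, adjusted p = 0.0287), and its list had 0 called without heat 1, heat 2 or any 1 recovery library, with no filter and with only the 2 groups. The importers were Slc39a14 (−0.53, adjusted p = 0.0141), Slc39a12 (−1.66, adjusted p = 0.0297) and Slc39a10 (−0.30, adjusted p = 0.0478). Their count was 1 with only the 2 groups and without heat 1, recovery 1 or recovery 2, and 0 without recovery 3.

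In mouse blood, Mtf1 was at 10.03 ± 0.41 CPM in control, 14.1 ± 0.84 CPM after heat and 10.8 ± 0.61 CPM after recovery (SD, n = 2 each; heat minus control 0.50, adjusted p = 0.163). The log2 differences from control of Slc30a1, Slc39a10 and Slc39a14 in blood ranged from −0.23 to 0.47, with none called. Atp7a, the other copper-transporting ATPase, was lower after recovery than after heat in blood (log2 −0.86, adjusted p = 0.0451, 1 of 9 copper handling genes, beside 3.99% of all genes). That count was 0 with only the 2 groups and without either control or either recovery library, and 3 without heat 1.

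Lists of other genes known to respond to the signals that act on metallothioneins were counted in the same fits, and most of these counts moved with single libraries. Of 15 glucocorticoid-responsive genes, 7 were called higher in lung right after heat (median log2 0.93, beside −0.01 over all genes tested, of which 5.85% were called and 3.14% called higher). Among them were Ddit4 (2.09), an inhibitor of mTORC1 signalling, Fkbp5 (2.06), a glucocorticoid receptor co-chaperone, Cdkn1a (1.70), an inhibitor of the cell cycle, and Sult1a1 (0.74), a sulphotransferase. The count was 3 without control 1 or heat 1, and 4 without control 3, heat 3 or recovery 1, with no filter or with only the 2 groups. In muscle right after heat 0 of 15 were called (median 0.64), with 7 at an unadjusted p under 0.05 and 6 called by DESeq2. That muscle count was 6 without recovery 1, 5 with only the 2 groups, 2 with no filter, and 1 without control 3 or heat 2.

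After recovery 0 of the 15 were called in either tissue, with medians of −0.24 in lung and 0.10 in muscle, 3 and 4 at an unadjusted p under 0.05, and 0 and 1 called by DESeq2. Between heat and recovery 9 of 15 were called lower in lung, beside 11.3% of all genes called, with 4 without heat 3 and 5 without recovery 2. In muscle 1 was called lower (Ddit4, log2 −2.85), beside 0.468%, and 3 by DESeq2. That muscle count was 0 with only the 2 groups and without any 1 control library, heat 1 or any 1 recovery library.

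Of 10 interleukin-6 and STAT3 genes, 1 was called right after heat in muscle, beside 0.428% of all genes: Cebpd, a transcription factor of the acute phase response, at 13.8 CPM in control and 37.9 CPM after heat (log2 1.46, adjusted p = 0.0485). The count was 0 without control 1, control 2, any 1 heat library, recovery 2 or recovery 3, and 2 without recovery 1 and in DESeq2. After recovery Cebpd was at 9.46 CPM (adjusted p = 0.0263 against heat), and that list's count of 1 was 0 without control 2, heat 1, heat 3 or any 1 recovery library. In lung 3 of 11 were called right after heat, beside 5.85%: Cebpd (1.62), Cebpb (0.83) and the receptor gene Il6ra (0.43). That count was 0 with only the 2 groups and without control 3, heat 1, heat 3 or any 1 recovery library, 1 with no filter or without control 1, and 5 without heat 2.

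The oxidative stress list holds 13 genes of the NRF2 pathway, including those of this transcription factor and of its inhibitor. Of these, 1 was called in lung right after heat, a share near the 5.85% of all genes: Hmox1, which breaks down heme (log2 0.80). The count was 0 with only the 2 groups and without any 1 control library or heat 1, and 4 without heat 2. EdgeR called 0 of 13 in muscle right after heat (median 0.37, 5 at an unadjusted p under 0.05, 5 in DESeq2) and 0 of 13 after recovery (median 0.36, 5 at an unadjusted p under 0.05, 2 in DESeq2). The muscle count right after heat was 3 without recovery 1, and 1 without control 3 or with only the 2 groups. After recovery it was 1 without recovery 1.

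The list of heat shock factor targets holds 13 genes, mostly of chaperones and their partners, and includes the gene of a heat shock factor. Of these, 7 were called higher in muscle right after heat (median log2 2.65), beside 0.428% of all genes called. After recovery 3 were called higher (median 2.20), beside 0.0676%. Those 3 were the inducible HSP70 genes Hspa1a (7.83) and Hspa1b (8.11) and the small heat shock protein gene Hspb1 (3.13). Leaving out control 1, control 2 or heat 1 brought the heat count to 0, leaving out heat 3 to 2, and leaving out recovery 3 to 4. It was 12 if recovery 1 was left out, with only the 2 groups or in DESeq2. The recovery count was 0 without any 1 control library or with only the 2 groups, 5 without recovery 1 and 9 in DESeq2. At an unadjusted p under 0.05 there were 12 of 13 at both times.

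In lung 7 of the 13 were called higher right after heat (median 2.65), beside 5.85% of all genes called, and 0 after recovery (median −0.10, 2 at an unadjusted p under 0.05, 1 in DESeq2). Leaving out control 1 or control 3 brought the heat count to 1, and leaving out control 2, heat 1 or any 1 recovery library brought it to 2, as did a fit of only the 2 groups. It was 4 with no filter, and 12 if heat 2 was left out or in DESeq2. Hspa1a and Hspa1b are near-identical copies whose reads can be split between them. Between heat and recovery in lung, 8 of 13 heat shock, 3 of 13 oxidative stress and 2 of 11 interleukin-6 genes were called lower, beside 11.3%. Leaving out 1 library gave 2 to 11, 0 to 4 and 0 to 3. In blood that comparison called 8, 2 and 2 of these lower, and 7 of 15 glucocorticoid-responsive genes, beside 3.99%. Each of these blood counts was 0 without either control or either recovery library.

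**Figure D5:**
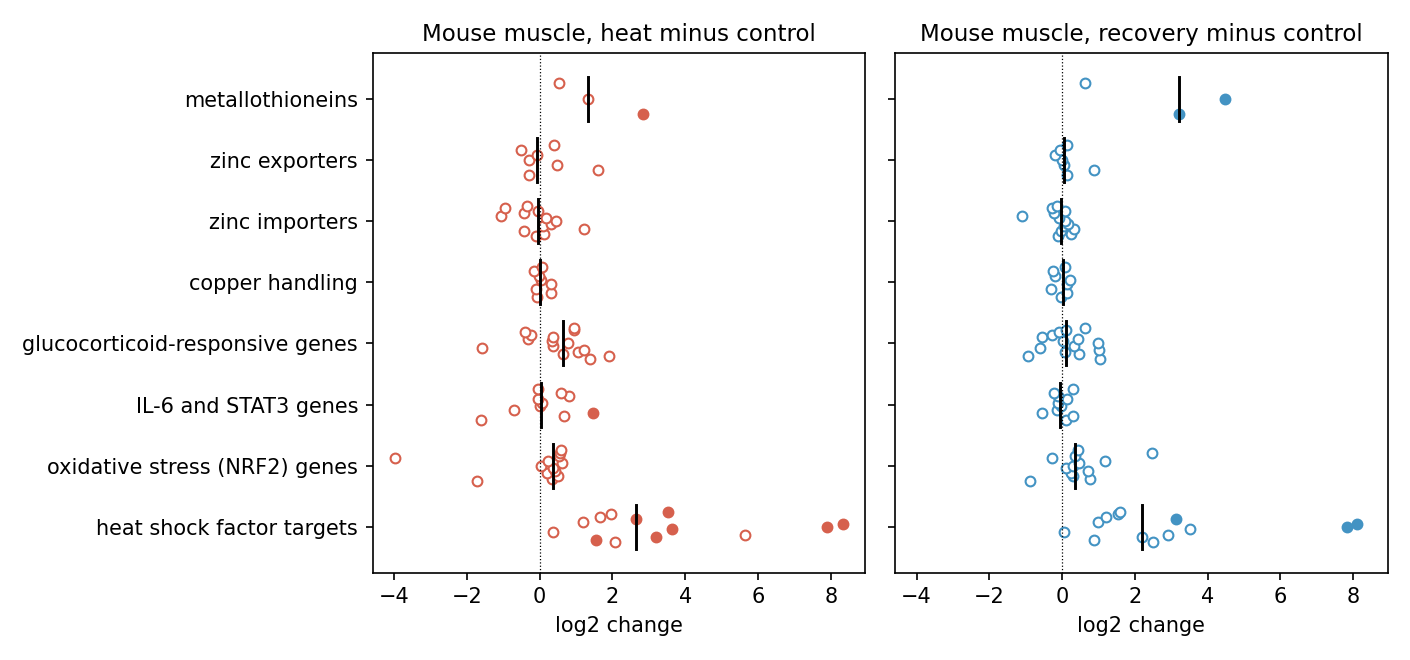
Log2 change from control in mouse muscle right after heat (left) and after recovery (right) for each gene of 8 lists, with 1 point per gene, filled where the adjusted p was under 0.05, and a vertical bar at the list's median. After recovery the metallothionein median is 3.21 and that of the heat shock factor targets 2.20, while zinc exporters, zinc importers and copper handling genes lie near 0.

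The genes most like each member were ranked by Pearson's r of log2 CPM, centred on the mean of each tissue, as a description without a test. Over all 24 mouse libraries and 13976 genes, those most like Mt1 were Inppl1 (0.89), Raph1 (0.88), Fmnl2 (0.86), Hr (0.86) and Fsd1l (0.86), and those most like Mt2 were Hsf2 (0.84), Zfp790 (0.74), Tpra1 (0.73), Zbtb20 (0.72) and Aopep (0.69). Mt1 and Mt2 had r = 0.46 with each other. These values include the blood libraries, where the pair had few or no reads. Over the 18 lung and muscle libraries alone, a choice made after seeing the data, Mt1 and Mt2 had r = 0.82. There the genes most like Mt1 included Sdc4 (0.91), Zcchc2 (0.86), Plekha1 (0.86) and Tmem87a (0.85), and those most like Mt2 were Hsf2 (0.91), Zbtb20 (0.87), Flnc (0.87), Rnf19a (0.86) and Hbegf (0.85). Hsf2, a heat shock transcription factor, led the order for Mt2 in both. The libraries share their conditions, so any gene that moved with heat or recovery can rank high. For the bat row over 27 libraries and 13645 genes, the highest were ENSG00000168802 (0.86), ENSG00000240972 (0.83), ENSG00000103363 (0.79), ENSG00000112514 (0.79) and ENSG00000178449 (0.78).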

How the data were processed

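Bulk RNA sequencing of total RNA (TRIzol, NEBNext Ultra Directional libraries, per the labels' protocols) covered blood, lung and muscle of bats and mice. The files deposited by the authors hold unnormalized read counts, 1 table per species, from STAR 2.7 and featureCounts, per the submitters' processing notes, which name GRCm39; the bat assembly, the featureCounts version and the strand setting are not given in the sources used here. Tests used edgeR 4.0.16 in R 4.3.3: filterByExpr (minimum count 10, total 15), TMM scaling, robust quasi-likelihood fits of each species and tissue over its 3 conditions, and Benjamini-Hochberg adjustment over all genes, with a threshold of 0.05. SE is the log2 change over the square root of F. Tissues were compared in 1 fit per species, and species in a joint fit of rows paired by mouse Ensembl identifier (644 before filtering) plus Mt2 with ENSG00000125148.

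Named were the members, Mtf1, Slc30a1, Slc39a10 and Slc39a14, up to 4 called genes with the smallest p per list and comparison, and the 5 genes most like each member, of which 1 is not reported here. Members and lists were chosen with earlier results of these data known. The model was also run on simulated data with changes added to the heat group only, and no result of that run is given here. Within groups, libraries differed beyond counting error by a factor of at least 10.6. Alternatives were DESeq2 1.42.0, RLE scaling, no filter, fits of the 2 groups alone, fits of the control libraries alone, a replicate block and leaving out each library.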

Additional observations from a re-analysis of the deposited data

Results flagged for a closer look

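The change of ENSG00000125148 in the bat differed from that of Mt2 in the mouse by the test of the difference itself in 3 of the 4 comparisons made in lung and muscle. The bat change minus the mouse change was −2.91 on the log2 scale in lung right after heat (adjusted p = 0.0403, edgeR), −2.67 in muscle right after heat (adjusted p = 0.0262) and −4.75 in muscle after recovery (adjusted p = 0.000177). These p-values were adjusted over the paired rows only. Of those rows 9.09% of 77, 8.7% of 46 and 2.17% of 46 were called, in the same order. These shares include the pair itself, the only row called in muscle after recovery. Without bat lung control 3, the shallow library, the lung value was −1.44 (adjusted p = 0.108), and that difference was called in only 6 of the 18 fits that left out 1 library. The muscle difference was called in 14 of 18 such fits right after heat and in all 18 after recovery. The bat row may hold the reads of more than 1 bat metallothionein gene. In muscle, Mt2 was higher in 3 of 3 recovery libraries than in every control library, while the bat row overlapped its controls after recovery and was lower in 3 of 3 heat libraries.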

How the results depend on the processing

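Depth limits Mt2 in mouse muscle control (29 to 73 reads per library) and both genes in mouse blood, and 3 libraries per group limit every call. Among the settings other than leaving out a library, 150 values kept their direction and side of the threshold and 21 did not. DESeq2 called Mt2 in lung after heat (1.21) and recovery (1.41), Mt2 in muscle after heat (1.38) and the bat row in muscle after heat (−1.36). Without a filter Mt1 in lung after heat (1.30, adjusted p = 0.101) was not called. With only the 2 groups compared, the calls were lost for Mt1 in lung after heat (1.29, 0.110), Mt1 in muscle after recovery (3.21, 0.0567), Mt2 there (4.48, 0.129) and Mt2 in muscle recovery against heat (3.15, 0.0895), and Mt1 in lung after recovery was called (0.85, 0.0467). With only the control libraries, bat blood minus lung was −1.60 (0.111). The cause was not tested.

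Replicate numbers did not pair the samples in the mouse. Same-number correlations in mouse muscle ranged from −0.43 to 0.52, and samples there correlated best with their own number in 4 of 18 checks. In bat muscle they did so in 17 of 18 checks, with same-number correlations of 0.03 to 0.18, beside −0.13 to 0.04 for other numbers. The bat muscle tests above took no account of this. With the number as a block, none of the bat row's changes within muscle turned direction or crossed the threshold. Neither did the muscle species difference at either time. Bat lung and bat blood gave 10 of 18 and 9 of 18. With the number as a replicate block, calls were lost for Mt1 in lung after heat (1.22, 0.0531), Mt1 in muscle after heat (2.86, 0.0931) and recovery (3.22, 0.117), Mt2 in muscle after recovery (4.43, 0.0664) and recovery against heat (2.99, 0.104), bat control blood minus lung (−0.48, 0.638) and the species difference in lung after heat (−2.50, 0.0734). The block also turned bat blood recovery minus heat (−0.14), bat control muscle minus lung (0.046) and bat heat response of muscle minus lung (−0.22). It moved the genes called in mouse muscle from 76 to 0 after heat, 12 to 2 after recovery and 83 to 8 between them. In bat muscle it moved them from 6 to 63, 426 to 560 and 1 to 5.

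Leaving out each library gave these log2 ranges where a call or direction changed. Mouse lung: Mt1 heat 0.83 to 1.60, Mt1 recovery against heat −0.75 to 0.016, Mt2 recovery against heat −0.049 to 0.65, and the log2 ratio heat minus control −0.30 to 0.25. Mouse muscle: Mt1 heat 2.49 to 3.04 and recovery 3.08 to 3.41, Mt2 heat 1.07 to 1.60, recovery 4.07 to 4.81 and recovery against heat 2.73 to 3.47. Mouse tissues: Mt1 control blood minus lung −3.54 to −2.22 and muscle minus blood 2.53 to 3.86, and Mt2 muscle minus lung −0.51 to 0.19 in control, −0.25 to 0.58 for heat and 2.60 to 3.42 for recovery. Bat row: blood heat −1.27 to 0.26, recovery −1.39 to 0.47 and recovery against heat −0.56 to 0.61, lung recovery −1.86 to 0.00073, and muscle recovery −0.95 to 0.053. Bat tissues: control muscle minus lung −1.08 to 0.67, blood minus lung −2.75 to −0.30 and muscle minus blood 0.53 to 2.08, heat muscle minus lung −1.10 to 0.65 and blood minus lung −0.56 to 1.89, recovery muscle minus lung −0.29 to 1.47, blood minus lung −0.60 to 1.85 and muscle minus blood −0.80 to 1.12. Species differences: lung heat −3.32 to −1.44, lung recovery −3.28 to −1.41 and muscle heat −2.93 to −2.34. Counts of genes called moved over 1.5 times in 51 of 90 comparisons of other settings and in 95 of 153 that left out a library: with DESeq2 they were 2156, 117 and 3087 in mouse lung (edgeR 1138, 6 and 2197) and 2362, 101 and 1161 in mouse muscle.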
